A study of Homo sapiens with 60 samples.

Results

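Low doses of 2 herbal decoctions were set against low doses of 4 ethanol extracts of single herbs in HT29, an established line of human colorectal adenocarcinoma cells, by RNA sequencing. The comparison took 18 of the 60 libraries of the series, chosen by their labels alone: 6 libraries of decoctions and 12 of ethanol extracts. Sibjeondaebo-tang and Palmul-tang were the decoctions, formulas of many herbs extracted in hot water, each at 20 µg/mL with 3 libraries. Ethanol extracts, made in 70% ethanol, were Poria, Atractylodes and Ginseng at 20 µg/mL and Glycyrrhiza (licorice root) at 14 µg/mL, likewise with 3 libraries each. Cells were exposed for 24 h in every group. Cells given the DMSO vehicle, with 3 libraries, were on neither side of the comparison and are given for orientation. Both formulas traditionally contain these same 4 herbs together with others, so the 2 sides differ in the number of herbs as well as in solvent.

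The titles of all libraries, vehicle included, carry the same batch name, BatchC. By their sample names, the decoctions belong to set 8. Set 9 holds Poria with Atractylodes and set 10 Glycyrrhiza with Ginseng, while vehicle has no set number. Extract type and sample set therefore cannot be told apart, and the differences below are those of set 8 libraries from set 9 and 10 libraries as much as of water from ethanol. The 6 decoction libraries held 23.7 M to 26.8 M counts and the 12 ethanol libraries 19.8 M to 27.8 M. Whether the 3 libraries of a group stem from separate cultures is not given, and p-values therefore reflect library-to-library spread that could be technical. Of the ethanol libraries, Poria replicate 1, Ginseng replicate 3 and Atractylodes replicate 3 lay apart from the others on the leading principal components, and counts without them are given where they matter. All 10 markers of colonic epithelium were detected, with summed levels of 12500 to 12800 CPM (counts scaled to library size with TMM factors) in decoction libraries and 12000 to 13500 CPM in ethanol libraries. Fibroblast markers summed to 1.74 to 2.3 CPM with decoctions and 1.61 to 2.83 CPM with ethanol extracts, and endothelial markers to 1.88 to 2.55 and 2.16 to 2.98 CPM, with KDR at 0 in all 18 libraries. Leukocyte markers summed to 1460 to 1580 CPM with decoctions and 1390 to 1720 CPM with ethanol extracts, nearly all of it LYZ, which encodes lysozyme, while CD3E and MS4A1 were at 0.

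Intestinal epithelial cells are an active part of mucosal defence. Engagement of microbial sensors or cytokine receptors releases the transcription factor NF-kB from its inhibitors, and it then turns on genes for chemokines that call in neutrophils, for antimicrobial proteins and for its own inhibitors. A separate programme, driven by transcription factors downstream of interferon receptors, turns on antiviral genes that carry an interferon-stimulated response element. HT29 cells are widely used to study both programmes.

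Genes of these 2 programmes were among those that differed between the extract types. Across 16445 tested genes, the edgeR quasi-likelihood test called 103 at a Benjamini-Hochberg adjusted p below 0.05 (0.626% of those tested). Of these, 94 rose with decoctions relative to ethanol extracts (0.572%) and 9 fell (0.0547%). Most changes were small: the median log2 fold change of the rises was 0.36, the smallest was 0.11, and 28 of the 94 rose more than 2-fold. Lists of chemokine and NF-kB, defence, interferon and MHC class I genes, chosen with earlier results of these data known, held 50 of the 94. In 44 genes all 6 decoction libraries lay above all 12 ethanol libraries (0.268% of the tested genes), and 43 of those were among the 94 rises. Lack of overlap was a condition for naming the largest rises and falls below, so for them it is no further evidence. In 3 genes, all called, the decoction libraries lay below every ethanol library (0.0182%). Over all tested genes the median log2 fold change was 0.00 and the median absolute value 0.045. Because these are bulk samples, a change in the number of responding cells and a change in RNA per cell cannot be told apart.

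**Figure D1:**
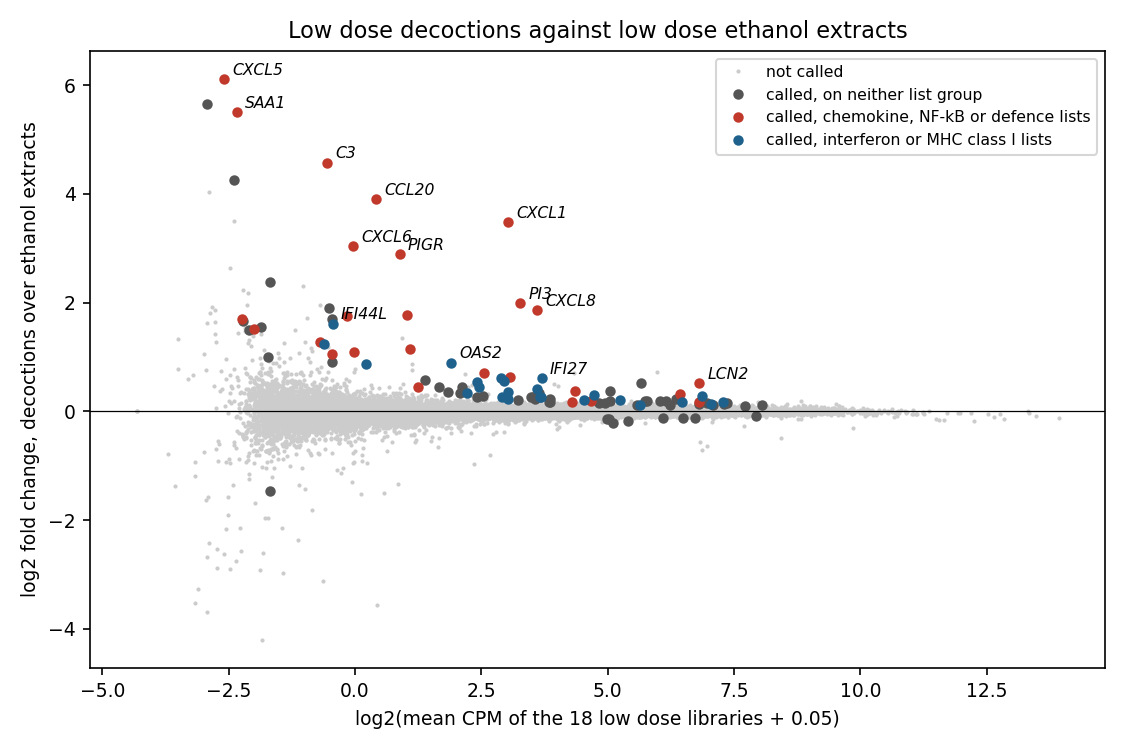
Each point is a tested gene, with log2(mean CPM of the 18 low dose libraries + 0.05) on the horizontal axis and the log2 fold change of decoctions over ethanol extracts on the vertical axis; grey points were not called. Called genes of the chemokine, NF-kB and defence lists (red) and of the interferon and MHC class I lists (blue) lie above 0, and the few called genes below 0 are on neither list group.

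Neutrophil chemokines were higher with decoctions by wide margins. CXCL1 encodes a chemokine that draws neutrophils through the receptor CXCR2 (ENSG00000163739, GRCh38 chromosome 4, 73869393 to 73871242, plus strand). Its level was 19.8, 20.7 and 21.8 CPM with Palmul-tang and 20.2, 20.8 and 20.1 CPM with Sibjeondaebo-tang, against 1.299 to 2.41 CPM (median 1.82) in the 12 ethanol libraries and 1.95, 1.68 and 1.22 CPM in vehicle. The decoction libraries stood close together, and the lowest of them was far above the highest ethanol or vehicle library. CXCL1 rose by 3.48 ± 0.077 on the log2 scale (SE; adjusted p = 1.57e-35), with group means of 20.6 ± 0.69 CPM in decoctions (SD, n = 6) and 1.84 ± 0.33 CPM in ethanol extracts (SD, n = 12). CXCL8 encodes interleukin-8, the best known neutrophil attractant. It stood at 22.4, 24.2 and 23.0 CPM with Palmul-tang and at 23.8 CPM in all 3 Sibjeondaebo-tang libraries, against 5.88 to 7.38 CPM in ethanol libraries and 5.18 to 6.37 CPM in vehicle. That was a rise of 1.87 ± 0.047 (adjusted p = 1.49e-33), again with no overlap.

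Other members of the CXC cluster on chromosome 4 moved in the same direction. CXCL6, which also acts through the neutrophil chemokine receptors, was at 1.94 to 2.61 CPM in decoction libraries, against 0.0846 to 0.423 CPM in ethanol libraries, a rise of 3.04 ± 0.18. CXCL3 averaged 3.77 ± 0.29 CPM with decoctions and 1.11 ± 0.22 CPM with ethanol extracts, and CXCL2 1.58 ± 0.12 and 0.470 ± 0.083 CPM (SD, n = 6 and 12), rises of 1.77 ± 0.12 and 1.75 ± 0.16. CXCL5 had 54 counts over the 6 decoction libraries and 0 over the 12 ethanol libraries. Set against a floor of 3 counts over the ethanol group, it was at least 34.1-fold higher with decoctions. CXCL1, CXCL2 and CXCL3 are close paralogs, as are CXCL5 and CXCL6, so the estimated counts can share reads between them and the split within each set is uncertain. CCL20, the ligand of CCR6 that attracts lymphocytes and dendritic cells to mucosa, averaged 3.4 ± 0.47 CPM with decoctions and 0.230 ± 0.14 CPM with ethanol extracts, a rise of 3.90 ± 0.19 (adjusted p = 2.26e-21). The lowest decoction library was at 2.81 CPM and the highest ethanol library at 0.423 CPM. CXCL10, a lymphocyte attractant induced by interferons as well as NF-kB, was at 0.355 ± 0.11 CPM with decoctions and 0.121 ± 0.054 CPM with ethanol extracts, a rise of 1.52 ± 0.30.

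**Figure D2:**
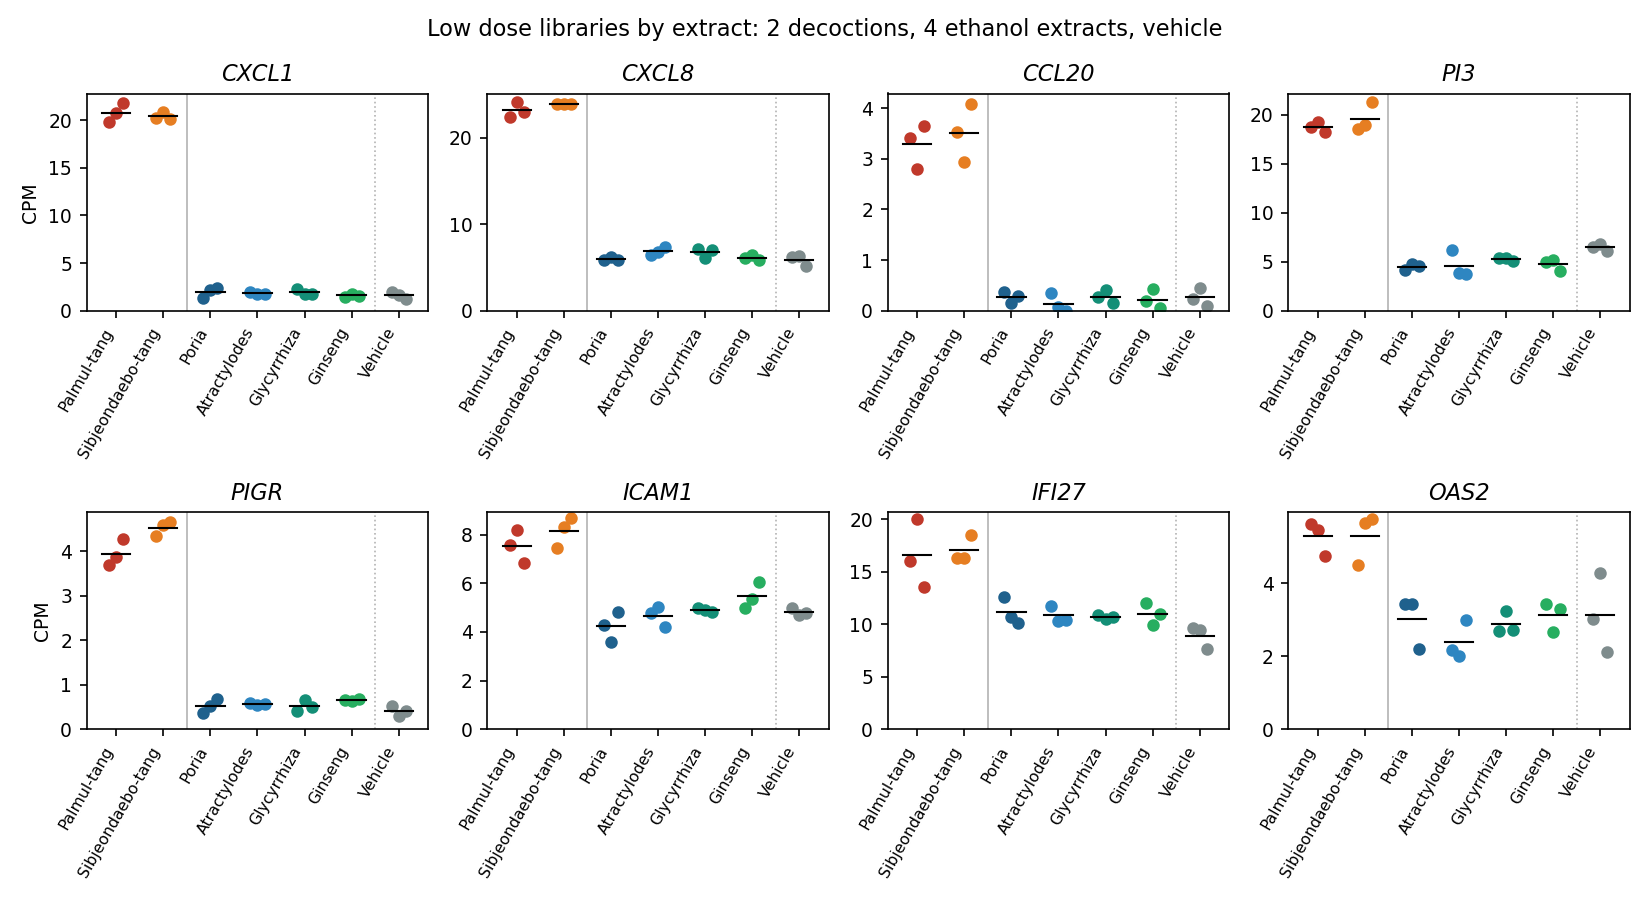
CPM of 8 genes in each low dose library, with decoctions at the left, ethanol extracts in the middle and vehicle at the right of each panel; points are libraries and black lines the means of 3. For CXCL1 the decoction libraries sit between 19.8 and 21.8 CPM and the ethanol libraries between 1.299 and 2.41 CPM.

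Promoter sequences of the leading chemokine genes are shown because NF-kB binds a short motif that can be looked for directly. The window was the 250 bases before each RefSeq gene start on GRCh38.p14, and the motif was written as GGNNNTTCC or, on the other strand, GGAANNNCC, a loose form of the kappa B site. The stretches below are the last 150 bases before the start, in the direction of transcription, with motif matches in capitals. Positions count back from -1, the base before the start.
CXCL1 (chr4:73869243-73869392, plus strand): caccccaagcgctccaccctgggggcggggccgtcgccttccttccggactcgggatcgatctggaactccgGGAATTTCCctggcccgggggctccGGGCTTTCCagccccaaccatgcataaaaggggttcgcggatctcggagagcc
CXCL2 (chr4:74099196-74099345, minus strand): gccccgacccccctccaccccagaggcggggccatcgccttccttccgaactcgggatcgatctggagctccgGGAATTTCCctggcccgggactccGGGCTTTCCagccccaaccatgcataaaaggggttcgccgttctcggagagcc
CXCL3 (chr4:74038690-74038839, minus strand): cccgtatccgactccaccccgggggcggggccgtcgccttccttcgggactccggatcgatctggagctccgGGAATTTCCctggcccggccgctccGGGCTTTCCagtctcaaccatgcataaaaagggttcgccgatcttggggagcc
CXCL6 (chr4:73836528-73836677, plus strand): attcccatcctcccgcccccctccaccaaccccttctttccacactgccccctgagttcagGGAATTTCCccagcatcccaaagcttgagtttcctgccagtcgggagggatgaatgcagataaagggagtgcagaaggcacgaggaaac
CXCL8 (chr4:73740419-73740568, plus strand): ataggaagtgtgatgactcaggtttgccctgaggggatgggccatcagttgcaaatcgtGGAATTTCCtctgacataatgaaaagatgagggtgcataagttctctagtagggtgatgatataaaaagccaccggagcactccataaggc
CCL20 (chr2:227813692-227813841, plus strand): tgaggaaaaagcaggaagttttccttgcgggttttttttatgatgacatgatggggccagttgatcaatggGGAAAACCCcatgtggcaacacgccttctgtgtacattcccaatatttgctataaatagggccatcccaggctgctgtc
In CXCL1 the matches begin at -78 and -53, in CXCL2 at -77 and -53 and in CXCL3 at -78 and -53, with the same letters at each place in all of these paralogs. CXCL6 has a match at -89 and CXCL8 at -91, both spelled GGAATTTCC, and CCL20 a match at -79, spelled GGAAAACCC. Over all 27305 RefSeq promoters 17.1% held a match in 250 bases, and over the 11184 promoters of tested genes 19.7%. Among rising genes on the chemokine, NF-kB and defence lists, 17 of the 22 with a promoter in the table did (77.3%), and among tested members of these lists that were not called 4 of 10 (40%). These lists were drawn from known NF-kB targets, for which such letters are usual whatever the cells did, so the shares are a description of the lists. Paralogs among these share sequence by descent and are not separate observations. A match describes letters in this window and does not show that a factor was bound.

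Counted over its whole list, the response in chemokine and NF-kB target genes was broad but uneven. Of 34 genes listed, 28 were tested, 18 rose (64.3%, against 0.572% of all tested genes) and 0 fell. The list median was 0.41, against 0.00 over all genes. This list and those below were chosen with earlier results of these data known. Their shares and medians therefore describe the lists and are not a test of them. A gene that is high only with decoctions can pass the filter on low counts through those libraries alone, as CXCL5 and CXCL10 did. Of the 26 members that pass it without them, 16 rose, with a median of 0.36. Over all tested genes, 82 of 16188 rose under that stricter entry (0.507%). ICAM1, an adhesion molecule that holds leukocytes at the epithelium, was at 6.84 to 8.67 CPM in decoction libraries, against 3.59 to 6.07 CPM in ethanol libraries, a rise of 0.71 ± 0.063 (adjusted p = 1.53e-11). BIRC3, a ubiquitin ligase that protects cells from TNF-induced death, rose by 0.63 ± 0.064 to 10.9 ± 1.1 CPM, against 7.08 ± 0.87 CPM with ethanol extracts (SD, n = 6 and 12). The lowest decoction library, at 9.10 CPM, lay just above the highest ethanol library, at 8.82 CPM, and inside the vehicle range of 7.40 to 10.4 CPM. ZC3H12A, an RNase that degrades inflammatory mRNAs, rose by 0.38 ± 0.040 to 24.2 ± 1.0 CPM, against 18.5 ± 1.4 CPM. Among inhibitors of the pathway itself, TNFAIP3 (A20) rose by 0.44 ± 0.11 and NFKBIA (IkB alpha) by 0.20 ± 0.049, with the libraries of the 2 extract types overlapping. NFKB2, a subunit, rose by 0.17 ± 0.039. Its relatives NFKB1 and RELB did not pass, at 0.01 ± 0.023 (adjusted p = 0.912) and 0.19 ± 0.058 (adjusted p = 0.209). SOD2, the mitochondrial superoxide dismutase and a classical NF-kB target, was not matched by the symbol table, but its identifier carries that name in GENCODE. It rose by 0.23 ± 0.032 to 90.6 ± 4.7 CPM, against 76.99 ± 4.0 CPM, and was looked up after the values were seen.

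Genes of epithelial defence included very large and absent changes side by side. Of 24 listed, 16 were tested, 8 rose (50%, against 0.572% of all tested genes) and 0 fell, with a list median of 0.35. Among the 13 that pass the count filter without the decoction libraries, 5 rose and the median was 0.10. PI3 encodes elafin, a secreted inhibitor of neutrophil elastase (ENSG00000124102, GRCh38 chromosome 20, 45174876 to 45176544). It was at 18.7, 19.2 and 18.2 CPM with Palmul-tang and 18.5, 18.9 and 21.3 CPM with Sibjeondaebo-tang, against 3.71 to 6.22 CPM in ethanol libraries and 6.14 to 6.82 CPM in vehicle. All decoction libraries were above all others, and the ethanol mean of 4.78 CPM was below the vehicle mean of 6.499 CPM. PI3 rose by 2.00 ± 0.082 (adjusted p = 1.76e-24). PIGR, the receptor that carries dimeric IgA across the epithelium, was at 3.70 to 4.67 CPM in decoction libraries, against 0.371 to 0.680 CPM in ethanol libraries, a rise of 2.89 ± 0.11 (adjusted p = 1.72e-26).

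Complement and acute phase genes rose from very low levels. C3, SAA1 and DUOX2 pass the count filter only with the decoction libraries. C3, the central complement component, had 271 counts in decoction libraries and 22 in ethanol libraries and rose by 4.58 ± 0.25. CFB, complement factor B, averaged 3.30 ± 0.38 CPM with decoctions and 1.48 ± 0.19 CPM with ethanol extracts, a rise of 1.15 ± 0.096. SAA1, serum amyloid A, had 67 and 2 counts, a 63.4-fold difference with a 95% counting interval of 16.9 to 534. That interval covers counting error only, and near-identical SAA2, with 26 counts in decoction libraries and 1 in ethanol libraries, can share its reads. LCN2, lipocalin-2, which starves bacteria of iron, was much more abundant and changed less. It was at 127 to 159 CPM in decoction libraries, 75.9 to 107 CPM in ethanol libraries and 111 to 122 CPM in vehicle, a rise of 0.52 ± 0.050 (adjusted p = 1.86e-10). The vehicle libraries lay between the extract types. DMBT1, a bacteria-binding mucosal glycoprotein, rose by 1.05 ± 0.18, and DUOX2, which makes hydrogen peroxide at the apical surface, by 1.71 ± 0.37 to 0.298 ± 0.087 CPM, against 0.0934 ± 0.059 CPM. Members that did not pass included S100P at 0.10 ± 0.063, SLPI at 0.05 ± 0.13, TFF3 at -0.01 ± 0.071 and CEACAM6 at -0.03 ± 0.038.

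Microbial sensors and their adaptors did not pass: 0 of 17 tested genes were called, and their median was 0.05. Of all tested genes 0.626% were called, so 0 calls in so short a list says little about these genes. TLR4, the receptor of lipopolysaccharide, was at 17.0 ± 1.1 CPM with decoctions and 16.8 ± 1.1 CPM with ethanol extracts (SD, n = 6 and 12), a difference of 0.02 ± 0.050. MYD88, the shared adaptor of Toll-like and interleukin-1 receptors, differed by 0.01 ± 0.030. Over the 6 decoction and 12 ethanol libraries, TLR2 had no counts, TLR5 12 and 27, NOD2 1 and 2 and LY96 4 and 5. Inflammatory cytokine genes that did not pass the count filter had few counts. IL1B had 16 and 15 counts, TNF 13 and 8, CSF2 26 and 25, and IL6 0 and 1. These counts are too few to show a difference.

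Interferon-stimulated genes formed the other group, with smaller but widespread changes. Of 35 listed and tested, 22 rose (62.9%, against 0.572% of all tested genes) and 0 fell. All 35 had a positive log2 fold change, and the median was 0.27, against 0.00 over all genes. The list was chosen with earlier results of these data known, so these values describe it and do not test it. The number of rises depended on the decoctions and the unit of replication: it was 11 without Sibjeondaebo-tang, 15 without Palmul-tang and 13 with extract means as units (limma). OAS2, which makes the second messenger that activates RNase L, was at 4.49 to 5.76 CPM in decoction libraries, 2.01 to 3.43 CPM in ethanol libraries and 2.12 to 4.28 CPM in vehicle. It rose by 0.90 ± 0.14 (adjusted p = 2.76e-05). IFI27, a mitochondrial protein commonly used as an interferon marker, was at 13.6 to 20.1 CPM in decoction libraries, against 9.94 to 12.6 CPM in ethanol libraries and 7.67 to 9.66 CPM in vehicle. Here the groups did not overlap, the rise was 0.62 ± 0.077 (adjusted p = 1.68e-07), and the ethanol libraries also stood above vehicle. IFI44L rose by 1.61 ± 0.23, at a low level of 1.22 ± 0.20 CPM, against 0.420 ± 0.20 CPM. Its relative IFI44 rose by 0.44 ± 0.078. Among the GTPases that block virus replication, MX1 rose by 0.62 ± 0.092 and MX2 by 0.87 ± 0.16. The ubiquitin-like modifier ISG15 rose by 0.22 ± 0.054 and the RNA sensors RIGI and IFIH1 by 0.27 ± 0.043 and 0.27 ± 0.059.

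Some factors of the antiviral programme are themselves interferon-inducible. IRF9, which binds the response element, rose by 0.41 ± 0.067 to 14.3 ± 1.7 CPM, against 10.8 ± 1.2 CPM (SD, n = 6 and 12). STAT2 and IRF1 did not pass, at 0.03 ± 0.047 and 0.05 ± 0.030, nor did IRF7 at 0.18 ± 0.051 (adjusted p = 0.092). The interferons themselves had few counts. IFNA1 had 33 counts with decoctions and 30 with ethanol extracts. IFNB1 had 3 and 5, IFNL1 6 and 14, IFNL2 1 and 0, IFNL3 2 and 1, and IFNG none. In MHC class I presentation, 2 of 15 tested genes rose (13.3%, against 0.572% of all tested genes). These were the peptide transporter subunits TAP1, by 0.23 ± 0.055, and TAP2, by 0.13 ± 0.030. The other 13, among them the heavy chains, did not pass. Leaving out single libraries ended the call of TAP1 in 6 of 18 cases and that of TAP2 in 7 of 18, with Palmul-tang replicates 2 and 3 among both.

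Promoters of IFI27 and IFI44L show the letters searched for in this group, the interferon-stimulated response element. It was written as GAAA repeated with any 2 bases between, or on the other strand as TTTC repeated with any 2 bases between, and is in capitals. MX1, which also rose, has no match in its 250 bases and is not printed.
IFI27 (chr14:94110586-94110735, plus strand): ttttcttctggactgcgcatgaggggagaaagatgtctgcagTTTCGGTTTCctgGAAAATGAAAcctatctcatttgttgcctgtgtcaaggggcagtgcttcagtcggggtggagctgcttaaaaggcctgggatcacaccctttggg
IFI44L (chr1:78620298-78620447, plus strand): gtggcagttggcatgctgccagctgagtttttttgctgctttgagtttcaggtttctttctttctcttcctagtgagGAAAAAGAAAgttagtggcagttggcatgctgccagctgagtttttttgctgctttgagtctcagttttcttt
IFI27 has matches on opposite strands at -108 and -95, and IFI44L a match at -73 in this stretch and a further match upstream in the window. Of all promoters 3.07% held a match, and of those of tested genes 2.26%. Among rising genes of the interferon list it was 10 of 18 (55.6%), among its tested members that were not called 5 of 10 (50%), and among those of the chemokine, NF-kB and defence lists 2 of 22 (9.09%). For the kappa B letters the interferon list stood at 5 of 18 (27.8%). Of the 39 rising genes on none of these lists, 10 held the kappa B letters (25.6%) and 7 the response element (17.9%). The motifs do not overlap each other in the stretches shown. The interferon list was drawn from known interferon-stimulated genes, for which the response element is usual whatever the cells did. Its shares are therefore a description of the list. Here too a match does not show that a factor was bound.

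**Figure D3:**
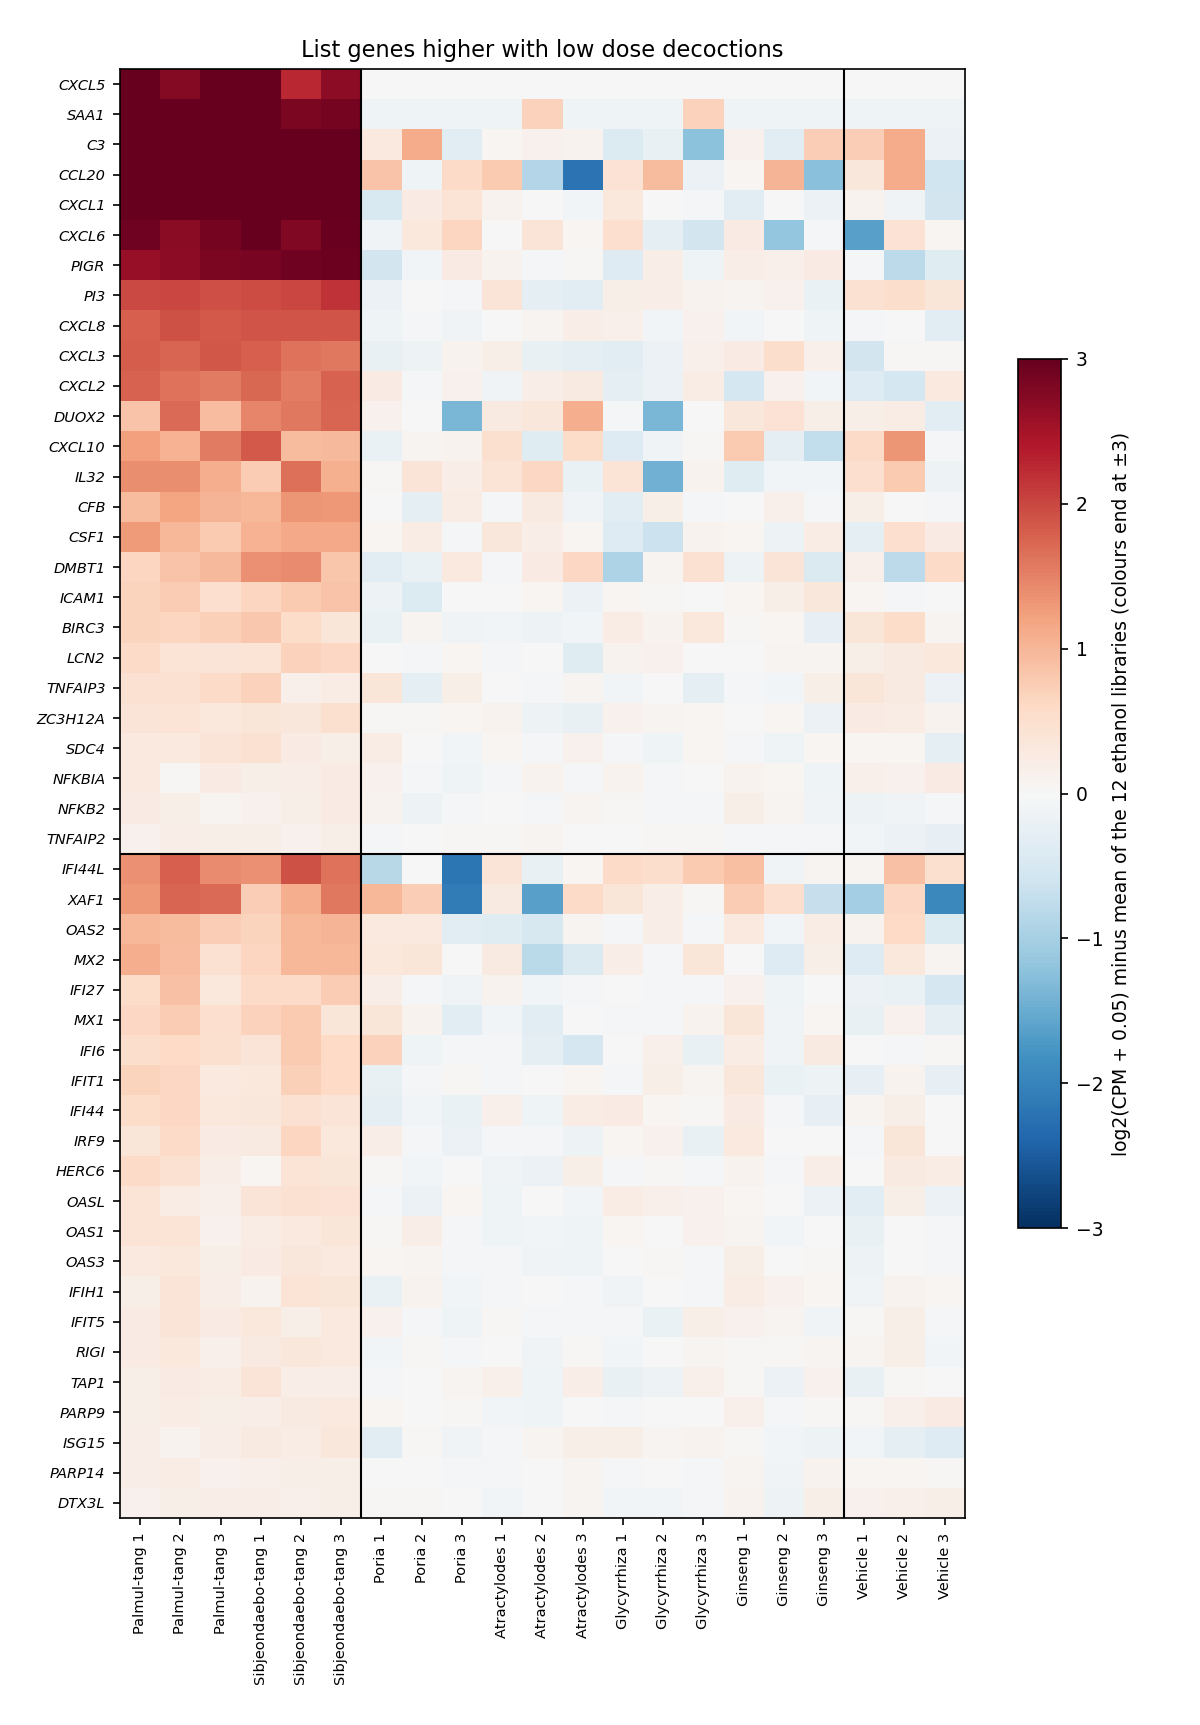
Log2(CPM + 0.05) of each library minus the mean of the 12 ethanol libraries, for the 48 genes on a list that rose by at least 0.15 on the log2 scale, with decoctions at the left, ethanol extracts in the middle and vehicle at the right. Chemokine, NF-kB and defence genes are above the horizontal line and interferon and MHC class I genes below it. The 6 decoction columns are deepest red for CXCL5 to PIGR and close to white for the smallest rises. All 12 ethanol columns of CXCL5 are at 0 counts.

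Outside these lists, 42 rising genes carried a symbol, and several have known ties to inflammation or antiviral defence. MMP7, matrilysin, a protease that activates intestinal defensins in the mouse, was at 57.8 to 67.9 CPM in decoction libraries, against 39.6 to 48.8 CPM in ethanol libraries, a rise of 0.52 ± 0.050 (adjusted p = 1.71e-10). The vehicle libraries spread from 43.6 to 63.0 CPM and overlapped both. SLFN5, a member of the interferon-inducible schlafen family, rose by 0.37 ± 0.039 to 38.9 ± 1.7 CPM, against 30.1 ± 1.2 CPM, without overlap. IL17C, an epithelial cytokine of the interleukin-17 family, rose by 2.39 ± 0.30 to 0.567 ± 0.15 CPM, against 0.11 ± 0.059 CPM. It passes the count filter only with the decoction libraries. IL4I1, a secreted amino acid oxidase, rose by 1.90 ± 0.20, and the adhesion molecule CEACAM7 by 1.69 ± 0.19. Smaller rises were those of the interferon gamma receptor chain IFNGR1 (0.19 ± 0.039), the dNTP hydrolase SAMHD1 (0.18 ± 0.038), the kinase IKBKE (0.21 ± 0.051) and the NAD salvage enzyme NAMPT (0.15 ± 0.022). Apart from MMP7 and SLFN5, these were singled out after their values were seen.

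Of the 9 falls, 8 were between 0.079 and 0.22 on the log2 scale. The other, ENSG00000269318, is listed in the gene name table only under its identifier. It had 18 counts in decoction libraries and 97 in ethanol libraries and fell by 1.46 (SE 0.35, edgeR adjusted p = 0.028). ECI1, a mitochondrial isomerase of fatty acid oxidation, was at 28.9 to 32.2 CPM in decoction libraries, 32.6 to 39.9 CPM in ethanol libraries and 25.8 to 26.98 CPM in vehicle. It fell by 0.22 on the log2 scale (SE 0.049; adjusted p = 0.0103), and both extract types stood above vehicle. PADI1, which turns protein arginine into citrulline, and NCKAP5L, a microtubule-associated protein, fell by 0.14 each (SE 0.032 and 0.034). PADI1 was at 29.8 ± 0.35 CPM with decoctions, 32.8 ± 2.0 CPM with ethanol extracts and 29.6 ± 0.86 CPM in vehicle (SD, n = 6, 12 and 3). Leaving out single libraries ended the call of NCKAP5L in 13 of 18 cases, that of PADI1 in 4 (Palmul-tang and Sibjeondaebo-tang replicates 1 and 2) and that of ECI1 in 1 (Palmul-tang replicate 3).

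Members of the other lists were not called. The remaining 32 lists, which cover oxidative stress, xenobiotic, sterol, lipid, stress, cell cycle, ribosome, lineage and mitochondrial genes, held 598 tested genes. Of these, 0 were called by edgeR, against 0.626% of all tested genes. The median was 0.01 for 28 NRF2 targets and 0.02 for 25 genes of cholesterol synthesis. The 13 genes of the mitochondrial genome had a median of -0.14, and the mitochondrial share of counts was 7.25% ± 0.51 in decoction libraries and 7.75% ± 1.0 in ethanol libraries (SD, n = 6 and 12; exact permutation test over libraries, 2-sided, p = 0.292). Over the 6 extract means the exact test gave p = 0.133, where the smallest p it can give is 0.0667. With the share as a covariate, 88 genes were called in place of 103, and the chemokine and NF-kB list still had 18 rises and the interferon list 20.

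Within each side no gene was called. Palmul-tang against Sibjeondaebo-tang at low dose gave 0 called genes (0% of 16445), with 399 at an unadjusted p below 0.05 by edgeR and 1 called by DESeq2. CXCL1 differed between them by 0.03 ± 0.096, CXCL8 by -0.04 ± 0.068 and PI3 by -0.07 ± 0.12 (SE). Poria against Atractylodes and Glycyrrhiza against Ginseng likewise gave 0 called genes each (0%), with 1328 and 1075 at an unadjusted p below 0.05 by edgeR and 0 and 2 called by DESeq2. The doses of Glycyrrhiza and Ginseng, 14 and 20 µg/mL, differed. Decoctions against ethanol extracts at low dose, with 6 and 12 libraries, had 1438 genes at an unadjusted p below 0.05 by edgeR. The 1328 of Poria against Atractylodes came near that number with only 3 libraries a side, while the 399 of the decoctions was far below it. By chance alone, a share of about 0.05 of the 16445 genes would have such a p. With so few libraries, a count of 0 does not show that such extracts act alike. Ethanol extracts of set 9 against those of set 10, a difference between sets within an extract type, gave 0 called genes (0%), with 1021 at an unadjusted p below 0.05 and 0 by DESeq2. There CXCL1 differed by 0.10 ± 0.15, CXCL8 by -0.01 ± 0.068, IFI27 by 0.02 ± 0.096 and ICAM1 by -0.22 ± 0.081. For the 94 rises the median absolute difference between these sets was 0.067. That measures sets 9 and 10 only and says nothing of set 8, which holds no ethanol extract.

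Against each ethanol set alone, most of the same genes were called. The decoction libraries are the same and the ethanol libraries are part of the 12, so such overlap is largely built in and is no repeat. Decoctions against Poria and Atractylodes gave 69 called genes, 67 of them among the 103, and decoctions against Glycyrrhiza and Ginseng gave 88, 70 of them among the 103. The chemokine and NF-kB list had 15 rises in each case, and the interferon list 20 and 16. Dropping a whole decoction lowered the counts more, to 54 without Palmul-tang and 51 without Sibjeondaebo-tang. The chemokine and NF-kB list then had 14 rises both times. Without the 3 ethanol libraries that lay apart, 86 genes were called, with 17, 8 and 20 rises on the chemokine and NF-kB, defence and interferon lists. An ethanol extract of Angelica from a further set, with 1 library per dose and in no test, had 1.77 CPM of CXCL1, 5.69 CPM of CXCL8 and 4.83 CPM of PI3 at its low dose of 12.8 µg/mL. For 88 of the 94 rising genes that library lay below all 6 decoction libraries, and for 71 within the range of the 12 ethanol libraries. The 94 were picked because these decoction libraries were high, so a position below them is partly built in. Angelica positions were not counted over all tested genes, so neither count can be read as high or low. Its values were also scaled apart, together with vehicle only.

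Vehicle libraries lay below the decoction libraries for most rising genes. These genes were picked because the same decoction libraries were high, so such a position is partly built in. Positions were not counted over all tested genes. For 92 of the 94 rises the decoction mean was above the vehicle mean, and for 59 all 6 decoction libraries were above all 3 vehicle libraries. The ethanol mean was above the vehicle mean for 48 of the 94. Of the 94 rises, 12 pass the count filter only with the decoction libraries, among them C3, SAA1 and DUOX2 of the defence list. In the defence list all 8 rising genes had every decoction library above vehicle, in the chemokine and NF-kB list 13 of 18, and in the interferon list 15 of 22. SAMD9, at 78.0 ± 3.8 CPM with decoctions and 68.2 ± 4.2 CPM with ethanol extracts (SD, n = 6 and 12), is an example of the opposite, with 82.6 ± 6.0 CPM in vehicle (SD, n = 3).

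Medium doses, 100 µg/mL and for Glycyrrhiza 70 µg/mL, gave a repeat in libraries that the low dose comparison did not use, with the same sets on each side. There 110 genes were called (0.669%), 90 that rose (0.547%) and 20 that fell (0.122%). Calls in the same direction numbered 68, which is 66% of the low dose calls and 61.8% of the medium dose calls. All 94 low dose rises had a positive log2 fold change at medium dose and 67 were called, while of the 9 falls 8 were negative and 1, ECI1, was called. Among the rises, 17 of 18 chemokine and NF-kB genes, 8 of 8 defence genes and 17 of 22 interferon genes were called at medium dose. CXCL1 rose by 3.95 ± 0.073 there, with 29.9 ± 2.9 CPM in decoctions and 1.92 ± 0.30 CPM in ethanol extracts (SD, n = 6 and 12). CXCL8 averaged 30.4 ± 1.8 and 6.70 ± 0.46 CPM, and IFI27 14.0 ± 2.3 and 9.90 ± 0.99 CPM. The medium fold change exceeded the low in 17 of 18 chemokine and NF-kB genes and 8 of 8 defence genes, and in 8 of 22 interferon genes. Among these genes, CXCL5, CXCL10, C3, SAA1 and DUOX2 pass the count filter only with the decoction libraries. A test of the difference between the doses called 0 genes (p below 0.05 unadjusted in 20 of the 103), so no single gene was shown to differ between these doses.

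**Figure D4:**
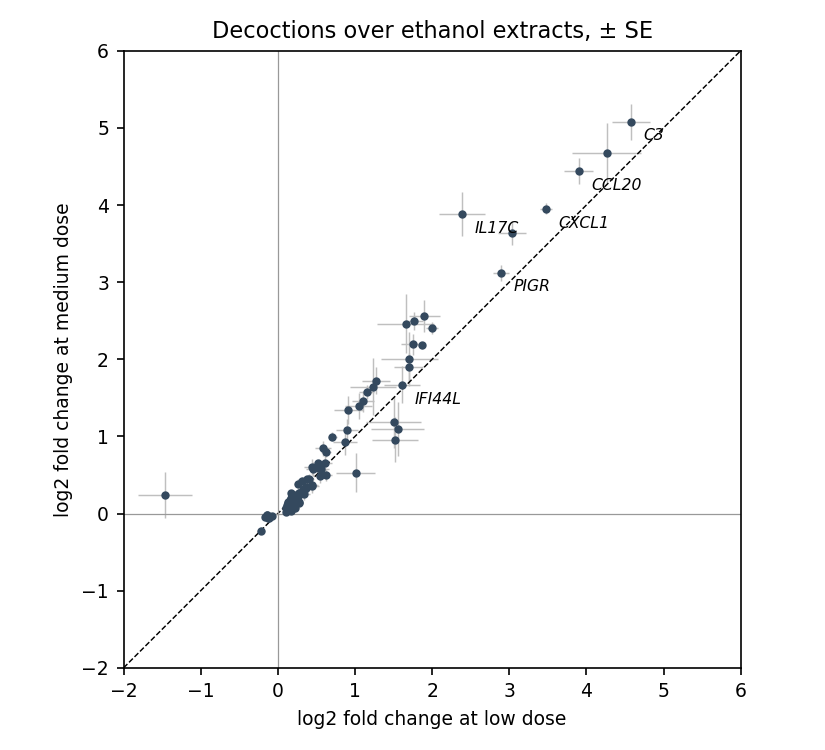
Log2 fold change of decoctions over ethanol extracts at low dose (horizontal) and medium dose (vertical), with SE bars. Points are called genes with an entry in the gene name table and more than 3 counts in the ethanol libraries. The dashed line marks equal values. C3, CCL20 and CXCL1 lie above the line, SAMD9L (1.56 and 1.09) and CXCL10 (1.52 and 0.96) below it, and the isolated point at the left is the low-count gene ENSG00000269318, at -1.46 and 0.24.

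At the high doses, 500 µg/mL and for Glycyrrhiza 350 µg/mL, 2133 genes were called (13%), 894 that rose (5.44%) and 1239 that fell (7.53%), and 67 of the 94 low dose rises were called higher there. CXCL1 was then at 31.2 ± 3.5 CPM with decoctions and 1.97 ± 0.44 CPM with ethanol extracts, and OAS2 at 3.73 ± 1.1 and 1.74 ± 0.41 CPM (SD, n = 6 and 12). IFI27 in decoctions averaged 16.8 ± 2.2 CPM at low, 14.0 ± 2.3 at medium and 12.8 ± 2.1 at high dose, and in ethanol extracts 10.9 ± 0.80, 9.90 ± 0.99 and 8.92 ± 0.76 CPM. Its log2 fold change was 0.62, 0.50 and 0.51 at these doses.

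**Figure D5:**
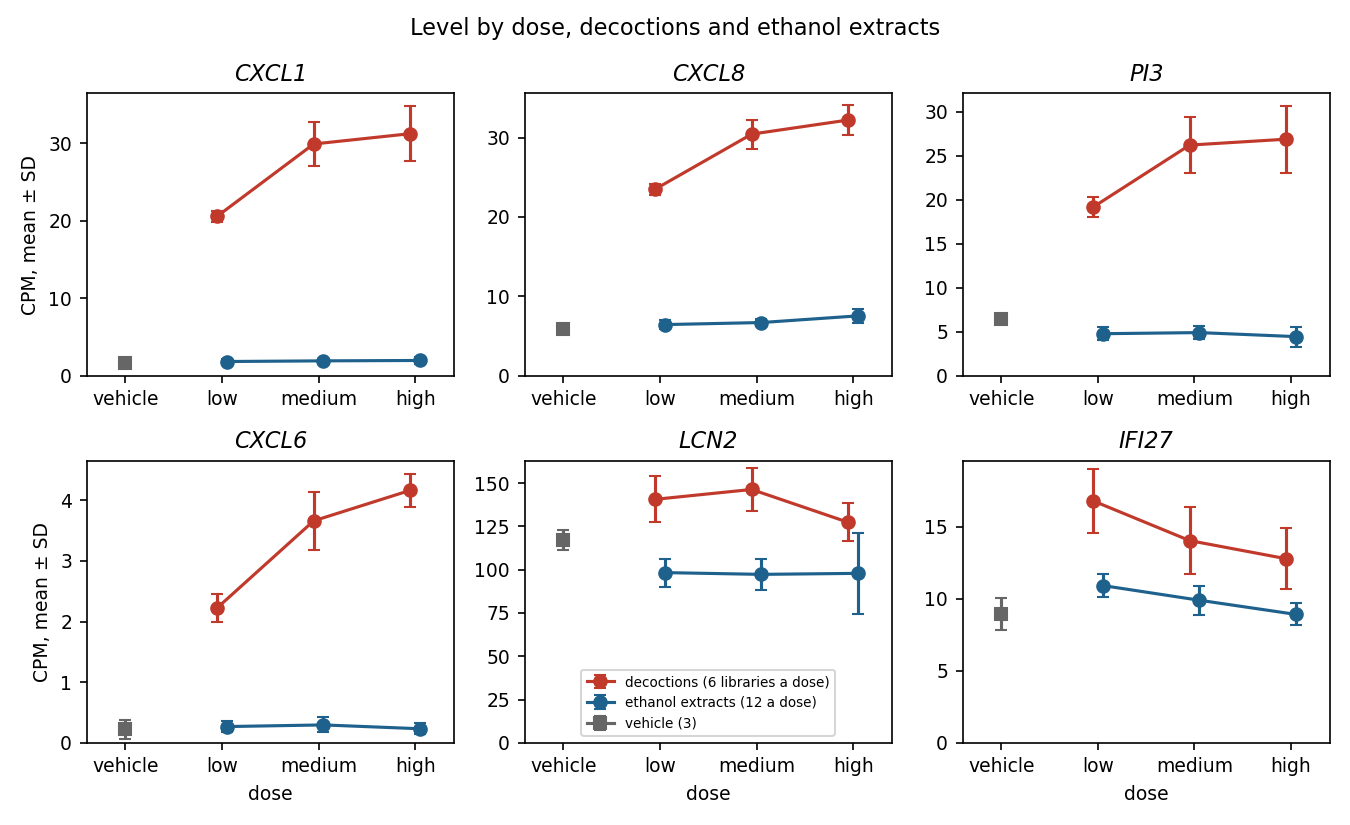
Mean CPM ± SD of 6 genes by dose, for decoctions (6 libraries a dose, red), ethanol extracts (12 a dose, blue) and vehicle (3 libraries, grey squares). CXCL1 means are 20.6, 29.9 and 31.2 CPM in decoctions and 1.84, 1.92 and 1.97 CPM in ethanol extracts at low, medium and high dose, and IFI27 means are lower at higher doses on both sides.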

How the data were processed

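RNA was sequenced as 100 bp pairs from strand-specific libraries, per the labels' protocols. Per the submitters' processing notes, tools included FastQC 0.11.9, Trim Galore 0.6.5, STAR 2.7.3a and RSEM 1.3.3, with GRCh38 (hg38). The deposited values are RSEM expected counts per gene, rounded here before testing. Before rounding, 7.7% to 9.78% of a library's values had a decimal part. A gene name table gave symbols, for some genes only the identifier itself, for 56558 of 60675 identifiers, and GENCODE 29 the gene coordinates. Promoters came from RefSeq, and 79 of the 92 rising genes with a symbol had one. Columns of 213 samples outside the series were not used.

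Genes with low counts were removed with filterByExpr, and libraries were scaled by TMM (factors 0.956 to 1.031). The edgeR 4.0.16 quasi-likelihood test (R 4.3.3) was fitted to 57 libraries in 19 groups, leaving out Angelica, which has 1 library per dose. The contrast was the mean of both decoction groups minus the mean of the 4 ethanol groups, with Benjamini-Hochberg adjustment over 16445 genes. CPM values use the total over tested genes times the TMM factor. Angelica values were scaled together with vehicle only. Named genes were up to 12 rises and 12 falls with the largest change among called genes at 5 CPM or more, with no overlap between extract types and the same sign at medium dose. Up to 3 called genes per list at 1 CPM or more were added, 23 genes in all, and further list members illustrate the counts. Members and lists were chosen with earlier results of these data known. The text of the series gives 2% DMSO and the labels 0.1% for vehicle. Scripts were tested on simulated data. Alternatives included DESeq2 1.42.0, limma 3.58.1 on extract means, a replicate block and leaving out libraries. Intervals cover counting error only.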

Additional observations from a re-analysis of the deposited data

Results flagged for a closer look

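The decoction minus ethanol log2 difference was not the same at high and low dose for 18 of the 101 low dose calls looked up, by the test of the difference itself in the edgeR fit (Benjamini-Hochberg adjusted over all genes). The share of all tested genes that differed in this way is not given, so 18 of 101 cannot be read as high or low. The genes were picked by their low dose difference, which is subtracted here. Lower values for rises and higher values for falls are therefore partly built in. In 9 genes the high dose value was above the low dose value. Chemokine genes were among these, with high minus low differences of 0.52 for CXCL1, 0.229 for CXCL8, 1.091 for CXCL6 and 0.736 for CXCL3. The defence genes PI3 and CFB differed by 0.618 and 0.487. The remaining upward differences were those of genes that had fallen at low dose, 0.181 for NCKAP5L, 0.224 for HOXB8 and 1.731 for the low-count gene ENSG00000269318.

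In the other 9 genes the high dose value was below the low dose value. OAS1, an interferon-stimulated gene, differed by -0.266 and SAMD9 by -0.233. NFKB2 differed by -0.188 and NAMPT by -0.179. The pseudokinase gene TRIB2 differed by -0.475, ASS1, an enzyme of arginine synthesis, by -0.37, SELENOK by -0.287, TRIM16 by -0.206 and SERP1 by -0.166.

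Among the 6 low dose decoction libraries, 1 library stood apart from the others in 2 of 55 genes checked. PI3 was at 21.27 CPM in Sibjeondaebo-tang replicate 3, and TAP1 at 10.02 CPM in Sibjeondaebo-tang replicate 1. Chance alone sets about 1 in 20 such groups apart.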

How the results depend on the processing

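Of 37 alternative counts of low dose calls, 33 were within 1.5 times of the 103 reported. Without a filter on low counts (34296 genes tested) the counts were 302 at low dose (206 rises and 96 falls, in place of 94 and 9), 269 at medium dose, 165 for set 9 against set 10, 75 for Palmul-tang against Sibjeondaebo-tang, 213 for Poria against Atractylodes and 145 for Glycyrrhiza against Ginseng. Leaving out Palmul-tang gave 54 and leaving out Sibjeondaebo-tang 51, and extract means as units (limma) gave 57. Leaving out single libraries gave 71 to 113 calls, and a mitochondrial share difference of -0.629 to -0.325 percentage points. DESeq2 called 102 at low dose (95 shared), 1 for Palmul-tang against Sibjeondaebo-tang and 2 for Glycyrrhiza against Ginseng, and fitting only the libraries compared called 70 at low dose and 1 for Glycyrrhiza against Ginseng. With a replicate block, low dose calls numbered 122, including all 103, medium 126, high 2440 and set 9 against set 10 gave 1. Whether replicate numbers pair the samples was not settled. Over 45 same-numbered pairs of low dose libraries, deviations from group means correlated at -0.151 to 0.116, 2 of them over 0.1. The mean was 0.011, against -0.005 for pairs with other numbers. With 3 numbers to choose from, 8 of 18 libraries correlated best with their own number. Such weak correlations cannot exclude a pairing. Outside the unfiltered fit, interferon rises ranged from 11 (without Sibjeondaebo-tang) to 23, chemokine and NF-kB rises from 14 to 19, defence rises from 6 to 8 and MHC class I rises from 0 to 2, with 0 falls on these lists; the number of list genes tested also varied, to as few as 26 chemokine and NF-kB, 14 defence and 34 interferon genes with the 18 libraries in 2 groups. Of 851 repeats over 23 named genes, 775 kept direction and call, 76 lost the call and 0 reversed. The 15 genes that kept both in all 37 alternatives include CXCL1 (3.42 to 3.54), CXCL8, PI3, OAS2 and IFI27, while the call was lost in 24 for NCKAP5L, 16 for TAP2, 14 each for PADI1 and TAP1, 4 for ECI1, 2 for IFI44 and 1 each for IFI44L and MX2. The causes were not tested. The set without the 3 libraries that lay apart (86 calls) was chosen after seeing the data. Genes with few counts, such as the interferons and IL6, are limited by depth.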
